A study of Mus musculus with 43 samples.

Results

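Passage through the complete pre-enrichment workflow was set against the cells that entered it, in 6 of the 43 libraries of the series. PD798, a line grown from a pancreatic tumor of 1 kind of engineered mouse (KPCY), was used for all of them. These mice carry Pdx1-cre, which drives recombination in the pancreatic lineage, an L allele of p53 in the heterozygous state (p53 L/+) and YFP at both Rosa alleles. The 3 Pre-enriched libraries hold cells that had met magnetic particles and RBC lysis buffer (which bursts red blood cells), gone through magnetic depletion and acoustic focusing, and been sorted in line on a BD Influx. The 3 Pre-FACS libraries hold an aliquot of the same line that was banked before any sorting. The experiment also holds FACS-only and Mock cells, with 3 libraries each. By the study's account, FACS-only cells came from the same sample as Pre-enriched cells and were sorted on the Influx without pre-enrichment. Mock cells were left in staining buffer at room temperature for as long. All cells had been cultured for 48 to 72 h in DMEM with 10% FBS before they were detached. PD798 is a single line, and nothing in the labels says whether libraries of a group came from separate cultures, so p-values measure the spread between these libraries, which may be technical. The labels also speak of mixing with blood for all samples, which the study's account of these conditions does not, and this is not settled here.

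Cells that are detached, chilled, sheared or kept in an unfamiliar buffer are known to answer within minutes to hours. In the integrated stress response, kinases phosphorylate the translation factor eIF2, general protein synthesis slows, and the transcription factor ATF4 is made and switches on genes of amino acid supply and redox balance. Immediate-early genes such as Fos and Egr1 are transcribed without new protein synthesis after mechanical or growth factor signals, and heat-shock factors raise chaperones when proteins misfold. Isolation procedures are therefore commonly checked against these programs.

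Expression is given as TPM, the transcript abundance of a gene corrected for its length and scaled so that every library has the same sum. TPM keeps no record of read numbers, so depth is unknown and no counting error can be given. Differences are Pre-enriched minus Pre-FACS on the log2(TPM + 1) scale, which understates changes of genes of low expression. Each of the 6 libraries had between 11802 and 11867 genes at 1 TPM or more, and Pearson's r across genes lay between 0.9888 and 0.9915 for their pairs. The Pre-FACS libraries did not lie equally close to their mean. In Pre-FACS 1 the 80 cytosolic ribosomal protein genes had a median 0.28 above it and the 77 nuclear oxidative phosphorylation genes a median 0.25 above it, against -0.18 and -0.14 in Pre-FACS 3. The ductal markers Krt7, Krt8, Krt18, Krt19, Cdh1 and Muc1 stood between 854 and 9896 TPM in all 6 libraries, and the 10 ductal markers summed to 24900 to 27000 TPM in Pre-FACS and 26300 to 28300 TPM in Pre-enriched libraries. Epcam stood lower, between 33.1 and 38.9 TPM, and Cldn4 and Cldn7 between 3.4 and 6.81 TPM.

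Of 13845 genes in the table, 12159 reached 1 TPM in at least 3 of the 12 libraries and were tested with limma in 1 fit of the 4 conditions. Few single genes differed between cells before and after the workflow. At an adjusted p under 0.05, 2 genes were higher (0.0164% of those tested) and 4 were lower (0.0329%) in Pre-enriched libraries. At an unadjusted p under 0.05, 452 genes were higher (3.72%) and 664 lower (5.46%), so that 40.5% of them were higher. Centring each library on its median turned this split to 595 higher and 530 lower, or 52.9% higher. All 3 Pre-enriched values lay above all 3 Pre-FACS values for 729 genes (6.00%) and below them for 1002 genes (8.24%). The fitted difference was above 0 for 45.6% of all genes, with a median of -0.01.

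The differences were small in size, above all among well-expressed genes. The median absolute log2 difference was 0.0924 over all genes, its 90th percentile 0.286 and its 99th percentile 0.635. Differences over 0.5, in either direction, were seen for 252 genes (2.07%) and differences over 1, that is over 2-fold on this scale, for 37 genes. Among the 2339 genes with a mean of 100 TPM or more, the median was 0.0576 and 1 gene exceeded 0.5. Among the 2904 genes between 1 and 10 TPM the median was 0.163 and 183 genes exceeded 0.5. Of the 37 genes with differences over 1, 29 were higher in Pre-enriched libraries, 11 had a mean of at least 10 TPM, and 24 were snoRNA, miRNA or snRNA genes.

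**Figure D1:**
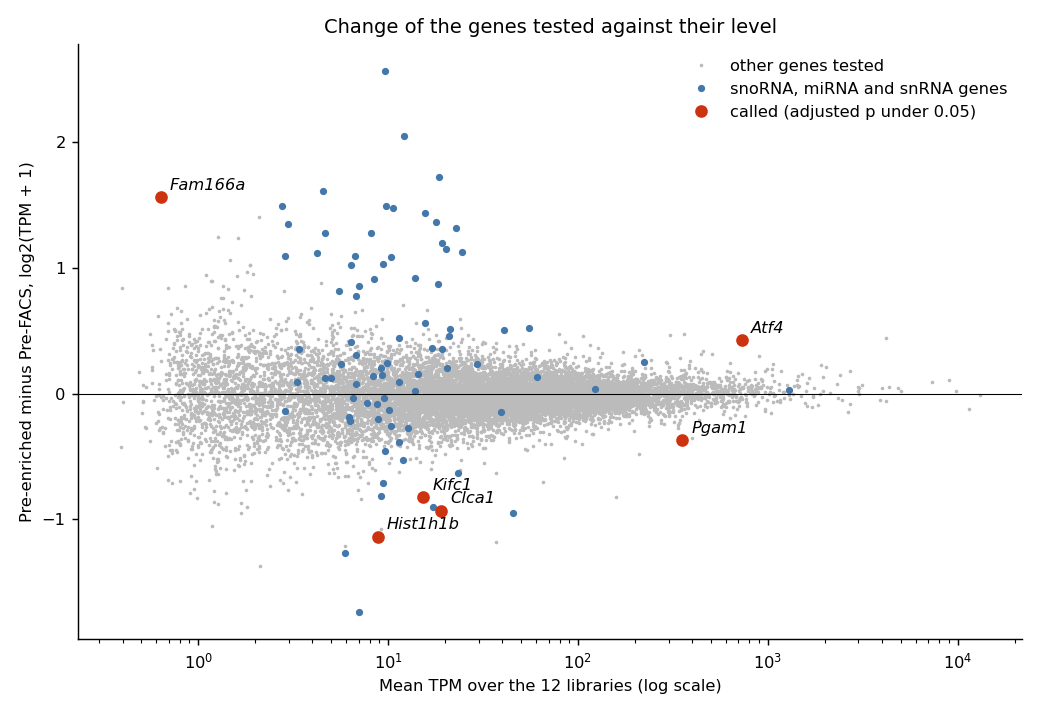
Difference between Pre-enriched and Pre-FACS libraries on the log2(TPM + 1) scale (y axis) against the mean TPM over the 12 libraries (x axis, log scale), 1 point for each of the 12159 genes tested, with small RNA genes in blue and the 6 genes past an adjusted p of 0.05 in red. The cloud narrows as the level rises, Atf4 stands apart above it among the genes of high level, and most points over 1 are small RNA genes.

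Atf4 (ENSMUSG00000042406, chromosome 15, 80255184 to 80257541 of mm10, plus strand), which encodes the transcription factor at the centre of the integrated stress response, had the lowest p of all genes. It was at 600.5, 583 and 579 TPM in the Pre-FACS libraries and at 802, 771 and 793 TPM in the Pre-enriched libraries. The groups stood well apart, since the gap between them was many times the spread within each. Atf4 rose by 0.42 on the log2 scale (SE 0.0428, limma adjusted p = 0.000396), from 587 ± 11.5 to 789 ± 16.2 TPM (SD, n = 3 each), and it was called with any of the 12 libraries left out.

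Fam166a, a gene of a ciliary microtubule protein on chromosome 2 (25218745 to 25222280, plus strand), was the other gene that rose. It was listed at 0, 0 and 0.118 TPM in Pre-FACS and reached 2.18, 1.75 and 2.28 TPM in Pre-enriched libraries, a difference of 1.56 (SE 0.232, limma adjusted p = 0.0205). The level is low throughout, and the size of the difference depends on the pseudocount. The gene overlaps Tubb4b on the other strand, which was at 495, 530.1 and 539 TPM in Pre-FACS and at 457, 530.2 and 536 TPM in Pre-enriched libraries, and counting is not stated to use strand. Whether reads of the neighbour contributed was not tested.

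Pgam1 (chromosome 19, 41911923 to 41918660, plus strand) encodes phosphoglycerate mutase of glycolysis and was the most abundant gene that fell. Its values were 389, 406 and 401 TPM in Pre-FACS and 306, 308 and 309 TPM in Pre-enriched libraries. The 3 Pre-enriched values were nearly the same, and all lay below the lowest Pre-FACS value. The difference was -0.37 (SE 0.0535, limma adjusted p = 0.0200). Reads of Pgam1 can be shared with its annotated pseudogenes.

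Kifc1 (chromosome 17, 33875659 to 33890661, minus strand), a spindle motor that walks towards the minus ends of microtubules, was at 18.1, 21.1 and 23.1 TPM before and at 10.1, 13.2 and 10.6 TPM after the workflow. It fell by 0.82 (SE 0.127, limma adjusted p = 0.0230). Hist1h1b (chromosome 13, 21779883 to 21780625, minus strand), a linker histone of the H1 family, was at 12.3, 14.4 and 11.6 TPM before and at 4.72, 6.44 and 4.68 TPM after it, a fall of 1.14 (SE 0.183, limma adjusted p = 0.0310). Both genes belong to the dividing cell, and neither had overlapping groups. Clca1 (chromosome 3, 145003817 to 145032776, minus strand), a secreted regulator of chloride channels known from mucous cells, was at 27.4, 21.5 and 23.8 TPM before and at 10.6, 12.1 and 14.1 TPM after it. Its fall was 0.93 (SE 0.152, limma adjusted p = 0.0311).

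Each of these other 5 calls was lost when any 1 of several libraries was left out, unlike that of Atf4. Without Pre-FACS 3, Pre-enriched 1 or Pre-enriched 3, Atf4 was the 1 gene called, and without Pre-FACS 2 the 2 genes called were Atf4 and Gnl3. Pgam1 was also lost without Pre-enriched 2. Without Pre-FACS 1 the count was 7 and included neither Fam166a, Hist1h1b nor Clca1. Clca1 was lost further without Mock 1 or Pre-enriched 2. Over all 12 libraries left out in turn, Kifc1 was called 8 times, Pgam1, Fam166a and Hist1h1b 7 times each and Clca1 5 times, all with the direction kept. The differences ran from -0.93 to -0.75 for Kifc1, -0.39 to -0.36 for Pgam1 and 1.51 to 1.64 for Fam166a. Those of Hist1h1b ran from -1.27 to -1.05 and those of Clca1 from -1.03 to -0.84.

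The same Pre-FACS libraries serve as the baseline for the other conditions, so those differences are given side by side and are not independent of the ones above. FACS-only minus Pre-FACS gave 15 genes at an adjusted p under 0.05 (0.123%) and Mock minus Pre-FACS gave 1 (0.00822%). Atf4 differed from Pre-FACS by 0.42 in FACS-only and by 0.34 in Mock libraries, where it was at 786 ± 19.8 and 744 ± 17.5 TPM (SD, n = 3 each). Kifc1 differed by -0.69 and -0.27, Hist1h1b by -0.93 and -0.21, Pgam1 by -0.25 and -0.10, and Clca1 by -0.50 and -0.08 in FACS-only and Mock, in that order. Fam166a differed by 0.29 and 0.14 there, with 0.273 ± 0.133 TPM in FACS-only and 0.156 ± 0.178 TPM in Mock libraries. Directly between Pre-enriched and FACS-only libraries, limma called 0 genes with a smallest adjusted p of 0.0690, and 821 genes had an unadjusted p under 0.05. Between Pre-enriched and Mock libraries it also called 0, with a smallest adjusted p of 0.192 and 945 genes at an unadjusted p under 0.05. Pre-enriched minus FACS-only was 0.01 for Atf4 (SE 0.0428), 1.27 for Fam166a (SE 0.232, adjusted p = 0.236) and -0.43 for Clca1 (SE 0.152, adjusted p = 0.672).

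**Figure D2:**
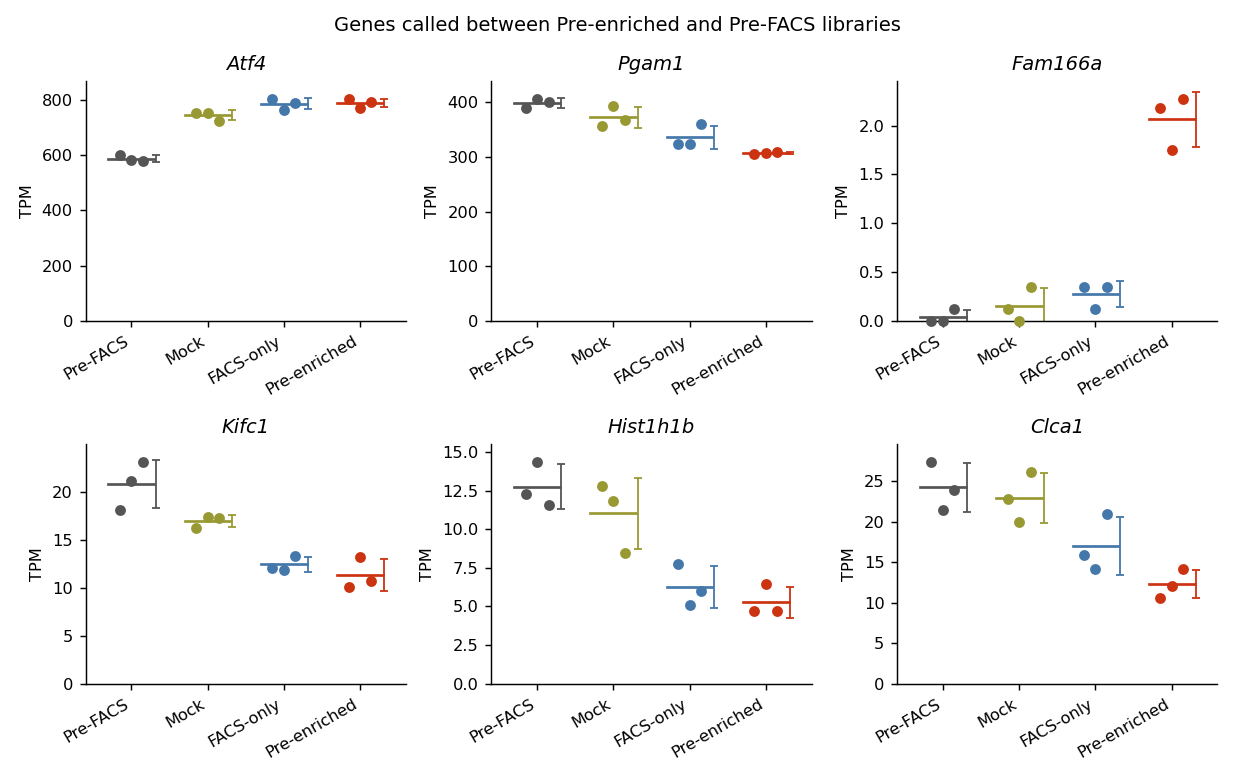
TPM (y axis, from 0) of the 6 called genes in each of the 12 libraries, grouped by condition, with a point for each library, a line at the mean and a bar of 1 SD beside it (n = 3). Atf4 is lowest in Pre-FACS and similar in the other conditions, Fam166a is above 1 TPM in the 3 Pre-enriched libraries only, and Pgam1, Kifc1, Hist1h1b and Clca1 have their lowest means in Pre-enriched libraries.

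Next by p were genes that did not pass the adjusted threshold. Gadd45g, a growth arrest gene induced by stress, missed it narrowly. It was at 58.5, 58.1 and 67.4 TPM in Pre-FACS and at 82.1, 88.0 and 86.1 TPM in Pre-enriched libraries, 0.47 higher (SE 0.0821, limma adjusted p = 0.0501). Gnl3, the nucleolar GTPase nucleostemin, was at 102, 121 and 106 TPM against 139.8, 142 and 141 TPM, 0.36 higher (SE 0.0659, limma adjusted p = 0.0746). Eif2s2, the beta subunit of the initiation factor eIF2, went from 156, 158 and 148 TPM to 207, 188 and 187 TPM, 0.33 higher (SE 0.0633, limma adjusted p = 0.0940). In all 3 genes the groups did not overlap. They differed from Pre-FACS by 0.62, 0.38 and 0.19 in FACS-only and by 0.28, 0.06 and 0.14 in Mock libraries, in that order. Hsp90aa1, the inducible cytosolic HSP90 chaperone, was 0.23 higher at 357 ± 11.7 against 418 ± 11.6 TPM (SD, n = 3 each). The surface protease gene Adam8 (0.52), the growth factor binding protein gene Igfbp4 (0.23) and Palmd (0.32) had adjusted p-values between 0.107 and 0.126. FACS-only minus Pre-FACS was 0.52 for Adam8, 0.17 for Igfbp4 and 0.09 for Palmd. Among genes of low level, 2900060B14Rik, which overlaps Clasp1 on the other strand, differed by 1.24, Hist2h2bb by 1.4 and Nim1k by 1.02, with Pre-FACS means under 1 TPM.

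On the lower side, Kank2, an adaptor of focal adhesions, was at 39.4, 49.0 and 43.5 TPM in Pre-FACS and at 29.0, 31.1 and 23.9 TPM in Pre-enriched libraries, a difference of -0.63 (SE 0.123, limma adjusted p = 0.0940). Gkn2, a gastrokine secreted by the stomach lining, was at 111, 84.8 and 89.2 TPM against 57.2, 71.9 and 69.4 TPM, a difference of -0.51 (SE 0.0998, limma adjusted p = 0.0940). Neither pair of groups overlapped. The retrovirus restriction gene Fv1 (-0.84), the glycosyltransferase gene Mgat3 (-0.32), Usb1 (-0.45), which trims U6 RNA, the glutathione transferase gene Gstt3 (-0.55), the lincRNA 2900097C17Rik (-0.38) and Hist1h2ae (-1.21) had adjusted p-values between 0.0940 and 0.116. Ski, a repressor of TGF-beta signalling, had the largest negative difference among genes with a mean of 10 TPM or more (-1.18). Its libraries scattered widely, at 17.7, 44.4 and 51.5 TPM in Pre-FACS and 7.17, 14.3 and 29.8 TPM in Pre-enriched, and the groups overlapped (SE 0.537, limma adjusted p = 0.528).

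Atf4 and 26 genes that ATF4 is known to switch on or act with were then read as a list. Of the 27, 26 had a fitted difference above 0, against 45.6% of all genes, and the median was 0.10 against -0.01. Atf4 itself is counted here, and the list was chosen with earlier results of these data known. The counts are therefore a description and not a test. Only Atf4 passed the adjusted threshold, and 6 members had an unadjusted p under 0.05, all of them higher, against 3.72% of all genes. Chac1, an enzyme that degrades glutathione, was at 123, 96.6 and 90.6 TPM in Pre-FACS and at 141, 138 and 125 TPM in Pre-enriched libraries, 0.39 higher (SE 0.118, limma adjusted p = 0.318). Ppp1r15a, which directs a phosphatase to eIF2, was at 172, 142 and 186 TPM against 198, 193 and 244 TPM, 0.34 higher (SE 0.110, limma adjusted p = 0.336). In both genes the groups were apart by a narrow gap. The other 3 were the bZIP factors Cebpb (0.17), Cebpg (0.21) and Atf5 (0.49), named here after their values were seen.

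The enzymes of amino acid supply stood near their starting level. Asns, asparagine synthetase, was at 662, 583 and 528 TPM in Pre-FACS and at 742, 632 and 542 TPM in Pre-enriched libraries, with overlapping groups and a difference of 0.11 (SE 0.127, limma adjusted p = 0.852). For the serine pathway genes Phgdh, Psat1, Psph and Shmt2 the differences lay between 0.01 and 0.07. Ddit3, which encodes CHOP, differed by 0.10 and Trib3, an inhibitory pseudokinase, by 0.18, and the 1 member below 0 was Vldlr, a lipoprotein receptor (-0.04). These members were also named after their values were seen. Side by side with 0.10 in Pre-enriched, the median of the list was 0.08 in FACS-only (22 of 27 above 0, against 50.3% of all genes) and 0.05 in Mock libraries (19 of 27, against 48.5%).

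The count of 26 depended on 2 libraries when each was left out, which also leaves the replicate numbers unbalanced between the groups. It was 16 without Pre-FACS 3 and 15 without Pre-enriched 1, and between 23 and 27 without any other library. Relative to the mean of Pre-FACS, the median of the list was 0.14, -0.01 and -0.12 in the Pre-FACS libraries and 0.25, 0.13 and -0.10 in the Pre-enriched libraries. Pre-enriched 3 thus lay below 2 of the 3 Pre-FACS libraries for the list as a whole, while its Atf4 was as high as in the other Pre-enriched libraries. Each Pre-enriched median lay above that of the Pre-FACS library of the same number, but what the numbers share is not stated.

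ATF4 binds with C/EBP partners to a composite element, searched here as TGATGNAA on both strands of the 250 bases before each RefSeq start (GRCm38.p6). The promoters of a single chromosome were left out of the search. Of the 27 genes, 23 matched an entry by symbol, and 7 held the element, which is 30.4% of them. This compares with 2.46% of the 9277 tested genes with an entry and 3.45% of the 32851 promoters searched. The 7 were Asns, Atf3, Chac1, Nupr1, Pck2, Slc7a11 and Vldlr, which run from Chac1 near the top of the list to Vldlr at its bottom, whereas Atf4, Atf5, Cebpb and Ppp1r15a held no match in this window. A match describes letters and not binding. The stretches around the element are shown for Chac1, whose difference was among the largest, for the stress-induced repressor gene Atf3 and for Asns, the classic example of the element, in the direction of transcription and with the element in capitals. In Chac1 and Atf3 it lies on the opposite strand. The stretches are chr2:119351023-119351082 (plus strand), chr1:191183410-191183469 (minus strand) and chr6:7693210-7693258 (minus strand).
Chac1: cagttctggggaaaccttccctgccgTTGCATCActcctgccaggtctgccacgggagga
Atf3: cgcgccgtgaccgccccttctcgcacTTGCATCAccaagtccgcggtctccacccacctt
Asns: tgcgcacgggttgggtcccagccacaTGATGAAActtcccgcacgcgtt

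The immediate-early genes leaned upwards without any gene passing the adjusted threshold in the reported fit. Of 28 tested, 22 were above 0 (78.6%), with the highest median of the lists, 0.13. Their median was 0.31 in FACS-only and 0.13 in Mock libraries. Fos, a subunit of the AP-1 factor, was at 670.3, 664 and 923 TPM in Pre-FACS and at 889, 829 and 1046 TPM in Pre-enriched libraries, 0.30 higher with overlapping groups (SE 0.127, limma adjusted p = 0.489). Library 3 had the highest Fos of its group in all 4 conditions. With the replicate number added to the fit as a block, limma called Fos, Atf3, Egr2, Nr4a1 and Btg2 of this list. Btg2, an antiproliferative member, had a difference of -0.25 (SE 0.111, limma adjusted p = 0.520). Pre-FACS 3 was the highest of its group for Fos and for the list, whose median there was 0.24 above the Pre-FACS mean, compared with 0.07, 0.09 and 0.19 in the Pre-enriched libraries. Most of the 11 early growth-arrest and survival genes showed the same leaning (7 above 0 or 63.6%, against 45.6% of all genes, median 0.06). Besides Gadd45g, Pim1, a survival kinase, was at 90.1, 81.0 and 77.3 TPM against 111, 99.9 and 95.3 TPM, 0.30 higher (SE 0.0929, limma adjusted p = 0.333). Pim3 (-0.06) and Bcl2l1 (-0.10), named after their values were seen, lay below 0, also without overlap.

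Other stress programs held no called gene, and their direction differed from list to list. Heat-shock proteins and cochaperones leaned upwards, with 15 of 22 above 0 (68.2%, against 45.6% of all genes, median 0.05). At an unadjusted p under 0.05, 3 of them were higher (against 3.72% of all genes) and 1 lower (against 5.46%). Hsp90aa1 and Dnaja1 (0.16) contrasted with the strongly inducible Hspa1b (-0.19). ER chaperones and the unfolded protein response were above 0 in 13 of 21 (median 0.02), with Dnajb9 at 0.28, the ER chaperone gene Hspa5 at 0.14 and Edem1, of ER protein disposal, at -0.21. For NF-kB subunits, inhibitors and targets the count was 12 of 25 (median -0.03), with the inhibitor Nfkbia at 0.21 and the chemokine Cxcl10 at -0.46. Trp53 and p53 targets had 12 of 21 above 0 (median 0.01), NRF2 targets 11 of 19 (median 0.01) and interferon-stimulated genes 4 of 11 (median -0.07). Named from these were the tumor suppressor Cdkn2a (-0.22), Perp (0.13) of cell adhesion, the quinone reductase Nqo1 (-0.29) and Usp18 (0.48), which removes ISG15. Of the genes named from these lists, Hsp90aa1 had a limma adjusted p of 0.107 and the others lay between 0.336 and 0.715.

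Most genes of ribosome assembly lay above their starting level, though none passed the adjusted threshold. Among 36 ribosome biogenesis genes, 28 were above 0 (77.8%, against 45.6% of all genes, median 0.06), 6 were higher (against 3.72% of all genes) and 1 lower (against 5.46%) at an unadjusted p under 0.05, and 9 had Pre-enriched values all above the Pre-FACS values (against 6.00%). Ddx18, a nucleolar helicase, was at 74.1, 79.2 and 82.2 TPM in Pre-FACS and at 100.2, 86.8 and 94.5 TPM in Pre-enriched libraries, 0.25 higher (SE 0.0692, limma adjusted p = 0.243). Npm1, nucleophosmin of the nucleolus, was at 849.8, 819.9 and 771 TPM against 929.5, 895 and 917 TPM, 0.17 higher (SE 0.0479, limma adjusted p = 0.276). As for Gnl3, their groups did not overlap. The count stayed between 24 and 29 without any of the 6 libraries. Aminoacyl-tRNA synthetases were above 0 in 13 of 20 (median 0.04), with Tars, which charges threonine tRNA, at 0.17, and the count fell to 8 without Pre-FACS 3.

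Cytosolic ribosomal proteins and oxidative phosphorylation subunits varied more within Pre-FACS than between the groups. Of 80 ribosomal protein genes 56 were above 0 (median 0.04), yet 17 were without Pre-FACS 3, 39 without Pre-FACS 2 and 77 without Pre-FACS 1. The medians of the Pre-enriched libraries, 0.05, 0.03 and 0.05 relative to the Pre-FACS mean, all lay inside the range from -0.18 to 0.28 of the Pre-FACS libraries. Rps27l had the lowest p of these genes, with a difference of -0.23 (limma adjusted p = 0.553). Of 77 nuclear oxidative phosphorylation genes 29 were above 0 (median -0.01), with 57 without Pre-FACS 1, 14 without Pre-FACS 3 and 40 with each library centred on its median. Sdhb of complex II (-0.18), and Ndufs1 (-0.16) and Ndufb8 (-0.18) of complex I, had the lowest p of them. Proteasome subunits were above 0 in 20 of 35 (median 0.01), with Psmb5 at -0.15 and Psmd11 at -0.13.

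Glycolysis and the response to hypoxia leaned downwards. Of 20 glycolysis genes 4 were above 0, against 45.6% of all genes, with a median of -0.06. Lower at an unadjusted p under 0.05 were 5 of them, against 5.46% of all genes, and the 3 Pre-enriched values lay all below the Pre-FACS values in 5, against 8.24% of all genes. Pgam1 is the 1 of them that was called. Pfkp, a phosphofructokinase, was at 102, 91.7 and 87.6 TPM in Pre-FACS and at 82.7, 83.1 and 83.2 TPM in Pre-enriched libraries, a difference of -0.17 (SE 0.0663, limma adjusted p = 0.445). Slc16a1, a lactate carrier, was at 261, 292 and 276 TPM against 246, 248 and 253 TPM, a difference of -0.15 (SE 0.0595, limma adjusted p = 0.471). The most abundant enzymes stayed close to the start, with Gapdh at 0.05, Aldoa at 0.00, Pkm at 0.04 and Ldha at -0.06, named after their values were seen. The count was 8 without Pre-FACS 2. In FACS-only the median was -0.13 and in Mock -0.03.

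Of 19 hypoxia-response genes 5 were above 0 (26.3%, median -0.06), and 3 without Pre-enriched 3. Bnip3, a mitophagy receptor, was at 277, 249 and 244 TPM in Pre-FACS and at 224, 215 and 219 TPM in Pre-enriched libraries, a difference of -0.22 (SE 0.0646, limma adjusted p = 0.282). Ankrd37, a HIF target, differed by -0.35 and Pdk1, which inhibits pyruvate dehydrogenase, by -0.17. In the opposite direction, cholesterol synthesis genes were above 0 in 19 of 24 (79.2%, median 0.06), and 4 of them were higher at an unadjusted p under 0.05, against 3.72% of all genes. Nsdhl, a sterol dehydrogenase, was at 82.6, 90.4 and 90.7 TPM against 110.0, 97.3 and 96.5 TPM, 0.20 higher (SE 0.0728, limma adjusted p = 0.416). Hsd17b7, an enzyme of the same pathway, was 0.16 higher. The count of 19 moved between 16 and 20 without any of the 6 libraries.

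Genes of mitosis were below 0 more often than not. Of 29 G2/M and mitotic spindle genes 7 were above 0 (24.1%, median -0.06), and Kifc1 is the 1 called. Ccnb1, cyclin B1, was at 235, 247 and 262 TPM in Pre-FACS and at 198, 222 and 228 TPM in Pre-enriched libraries, a difference of -0.20 (SE 0.0718, limma adjusted p = 0.416). Kif11, the motor that separates spindle poles, differed by -0.18. The proliferation marker Mki67 was at 0.01 and Top2a at -0.03, named after their values were seen. The count rose to 12 without Pre-FACS 3 and to 14 without Pre-enriched 1, the library in which the median of the list was lowest (-0.14, against -0.13 in Pre-FACS 1). For G1/S and DNA replication the count was 10 of 25 (median -0.03), 4 without Pre-FACS 1 and 14 without Pre-enriched 1, and Ccne1, cyclin E1, was at 0.28 (limma adjusted p = 0.346).

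The replication-dependent histones spread in both directions, more widely than any other list. Their differences ran from -1.21 to 1.4, 15 of 34 were above 0, and 8 were higher and 3 lower at an unadjusted p under 0.05, against 3.72% and 5.46% of all genes. Hist1h2ae was at 12.7, 7.14 and 5.73 TPM in Pre-FACS and at 3.48, 2.59 and 2.75 TPM in Pre-enriched libraries (limma adjusted p = 0.107). Hist2h2bb went the other way, from 1.04, 0.539 and 0 TPM to 3.41, 2.39 and 2.86 TPM (limma adjusted p = 0.138). Both lay apart between the groups. These genes lack poly(A) tails for the most part, most were at low levels here, and near-identical copies can share their reads.

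Epithelial adhesion genes and keratins leaned downwards in the reported fit, with 5 of 16 above 0 (31.2%, against 45.6% of all genes) and a median of -0.07. The count was 3 after quantile normalization, 6 after median centring and 7 after trends with length and GC content were removed. The list held 1 gene that was lower at an unadjusted p under 0.05, the tight junction gene Ocln, at 24.3, 22.7 and 23.5 TPM in Pre-FACS and 19.8, 14.9 and 19.5 TPM in Pre-enriched libraries (-0.37, SE 0.134, limma adjusted p = 0.416). The claudin genes Cldn4 (-0.38) and Cldn7 (-0.36) and the desmosome gene Dsp (-0.23) also lay below 0 with overlapping groups. The keratin genes Krt7 (0.05), Krt8 (0.09) and Krt18 (0.11) lay above it, also with overlap. Without overlap, the keratin gene Krt19 (-0.05) and Epcam (-0.10) lay below 0 and Muc1 (0.10) above it. Cdh1, E-cadherin, was at 979, 989.7 and 1029 TPM against 976, 1024 and 985 TPM, with overlapping groups. Apart from Ocln, these were named after their values were seen. Mesenchymal genes were above 0 in 6 of 11 (median 0.04), with S100a4 at -0.24. YAP targets were above 0 in 10 of 21 and in 13 after median centring, and held Foxf2 (-0.35), Ctgf (-0.14) and Ccdc80 (0.34). At an unadjusted p under 0.05, 3 of them were higher and 3 lower, against 3.72% and 5.46% of all genes. Cyr61 (0.44), Ankrd1 (0.32) and Nuak2 (-0.36), all with overlapping groups, completed these and were named after their values were seen. Actin cytoskeleton and SRF targets were above 0 in 13 of 18 (72.2%, against 45.6% of all genes, median 0.04), with Tpm1 (0.11), Actb (0.13) and Zyx (0.21), all without overlap and with adjusted p-values above 0.4. Without overlap, 6 members lay above and 2 below, against 6.00% and 8.24% of all genes. The 2 below were Tagln (-0.55, at a low level) and Pfn1 (-0.08), named after their values were seen. The EGF family held differences of both signs among its ligands. Hbegf was at 186, 156 and 194 TPM in Pre-FACS and at 211, 207 and 245 TPM in Pre-enriched libraries, 0.31 higher (SE 0.0950, limma adjusted p = 0.333), and Areg was 0.21 higher (limma adjusted p = 0.361). The ligands Ereg (0.17) and Egf (0.49, at a low level) also lay above 0, whereas Btc (-0.24, limma adjusted p = 0.523) and Tgfa (-0.14) lay below it. Egfr differed by -0.19, Erbb2 by -0.14, Erbb3 by -0.24 and the shedding protease Adam10 by -0.13, so that 4 of the 11 members were above 0 (median -0.14). The receptors and the ligands other than Hbegf and Areg were named after their values were seen. MHC class I antigen presentation had 7 of 9 above 0 (median 0.02, Psme2 at -0.13) and the circadian clock 9 of 18 (median 0.02), with Nr1d1 at 0.25, Bhlhe40 at 0.19 and Per2 at -0.37.

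**Figure D3:**
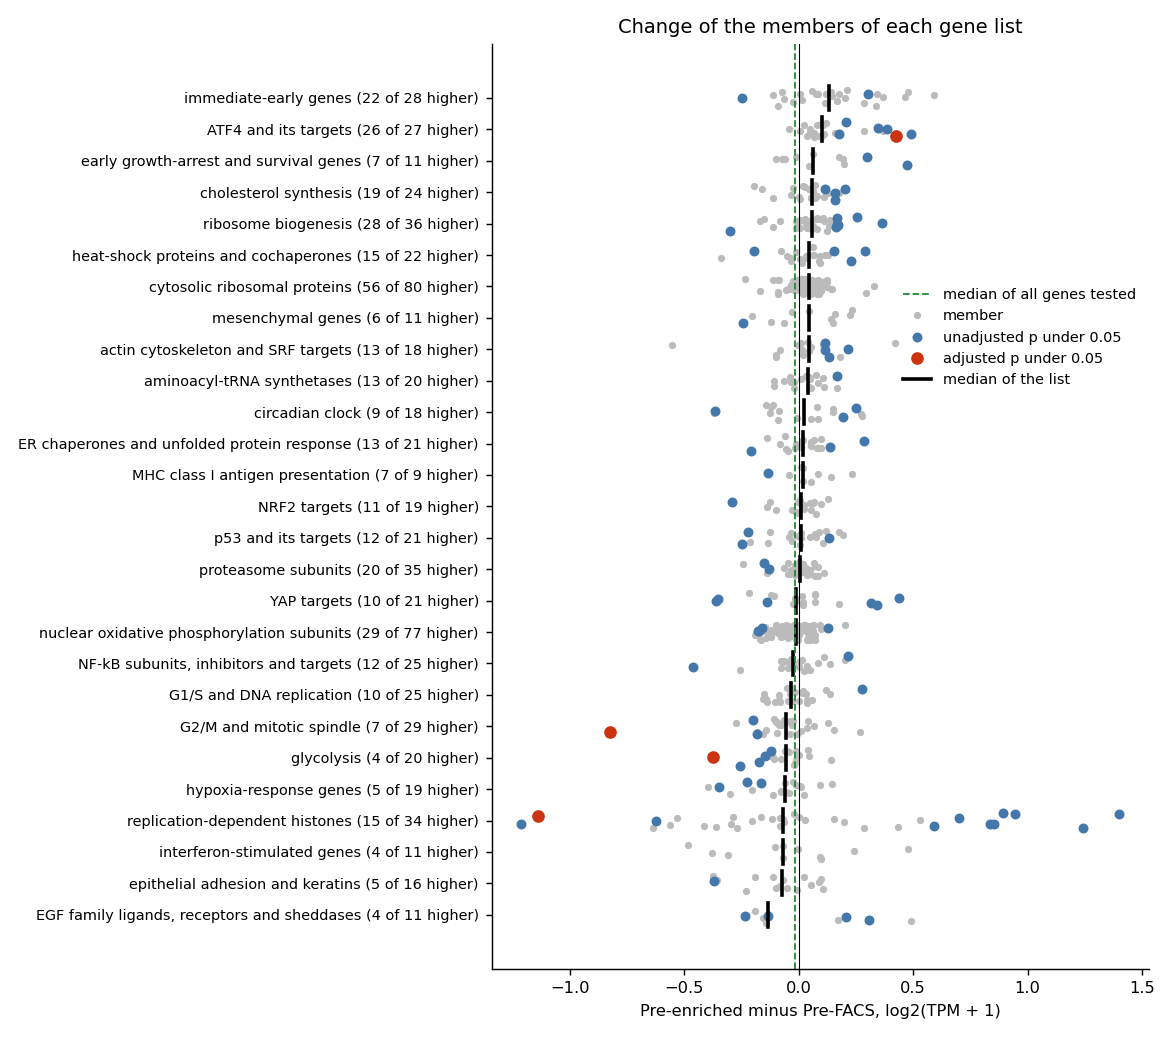
Difference between Pre-enriched and Pre-FACS libraries on the log2(TPM + 1) scale (x axis) of the members of 27 gene lists (y axis, ordered by median), 1 point per gene, with black bars at the list medians, blue points for an unadjusted p under 0.05, red points for Atf4, Pgam1, Kifc1 and Hist1h1b, which passed the adjusted threshold, and a dashed line at the median of all genes (-0.01). Medians run from -0.14 for the EGF family to 0.13 for the immediate-early genes, and the histones spread most widely.

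The direction of the difference went with transcript length. Genes with a mean of 5 TPM or more were divided into 4 bins of near-equal size by their longest annotated transcript, and the share above 0 was 52.3%, 51.0%, 44.5% and 33.0% from the shortest to the longest bin. In the longest bin, 58 of 2525 genes were higher and 246 lower at an unadjusted p under 0.05, against 3.72% and 5.46% of all genes. The longest bin also set Pre-FACS 1 apart from its group. Relative to the Pre-FACS mean, its median was -0.08, 0.04 and 0.05 in the Pre-FACS libraries and -0.07, -0.01 and -0.08 in the Pre-enriched libraries, so the 2 groups overlapped. After a trend with length and GC content was taken out of each library, 584 genes were higher and 579 lower at an unadjusted p under 0.05, limma called 9 genes, which included the same 6, and the ATF4 list had 27 of 27 above 0. The part of fragment length or RNA quality in this pattern was not tested.

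Small RNA genes inside other genes made up most of the large differences. The 49 snoRNA genes had a median of 0.44, and 39 were above 0 (79.6%, against 45.6% of all genes). At an unadjusted p under 0.05, 14 were higher and 2 lower, against 3.72% and 5.46% of all genes, with none called. Relative to the Pre-FACS mean their median was 0.24, 0.01 and 0.02 in Pre-FACS and 0.26, 0.71 and 0.55 in Pre-enriched libraries, so that Pre-enriched 1 was close to Pre-FACS 1. Snora70, a guide RNA for pseudouridylation within Rpl10, was at 16.9, 11.3 and 7.23 TPM against 28.1, 29.5 and 33.8 TPM, 1.36 higher (SE 0.320, limma adjusted p = 0.173). Its groups did not overlap. Snord110, within Nop56, was at 6.53, 11.3 and 0 TPM against 13.1, 11.1 and 36.9 TPM, with overlap (2.05, SE 0.928, limma adjusted p = 0.525). For 43 snoRNA genes a host gene on the same strand was tested, and the 37 hosts had a median of 0.07 and ran from -0.20 to 0.36. In 34 of the 43 the snoRNA gene lay above its host. Mir1894 (1.72), Snord73a (1.47) and Snord43 (1.44) had the next largest positive differences, and Mir3064 (-0.95) and Mir186 (-0.90) large negative ones, among genes with a mean of 10 TPM or more. Reads of such short genes cannot be told apart from those of the host gene, so these values are no measure of the mature RNAs.

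**Figure D4:**
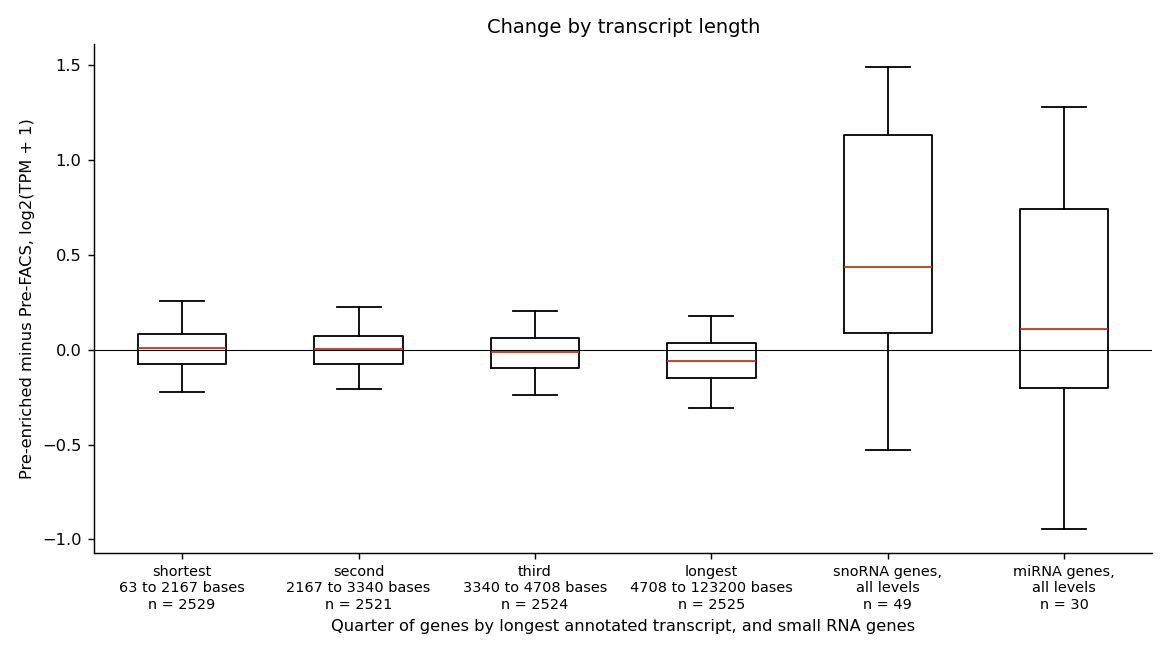
Difference between Pre-enriched and Pre-FACS libraries on the log2(TPM + 1) scale (y axis) for genes with a mean of 5 TPM or more in 4 bins of transcript length, and for snoRNA and miRNA genes at all levels (x axis), with boxes from the 25th to the 75th percentile, red lines at the medians and whiskers from the 5th to the 95th percentile of the genes. The longest bin has a median of -0.06 and the snoRNA genes one of 0.44.

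Markers of blood and stromal cells were low in both groups apart from Cd14. Of 18 leukocyte markers 5 were in the table, and Ptprc, which encodes CD45, stayed under 0.5 TPM in all 6 libraries. Their sum was 332 to 358 TPM in Pre-FACS and 310 to 356 TPM in Pre-enriched libraries, nearly all of it Cd14, which was at 298 to 347 TPM in both. The macrophage marker Cd68 was at 10.1, 9.59 and 9.84 TPM in Pre-FACS and at 11.0, 10.7 and 13.6 TPM in Pre-enriched libraries, without overlap, a difference of 0.23 (SE 0.175, limma adjusted p = 0.739). Of the erythroid markers Alas2 alone was in the table, at 0.713, 0.201 and 0.606 TPM in Pre-FACS and at 3.33, 0.199 and 1.10 TPM in Pre-enriched libraries, with Pre-enriched 1 the highest. Platelet markers summed to 2.5 to 3.75 TPM in Pre-FACS and 2.64 to 4.45 TPM in Pre-enriched libraries, 2 acinar markers to 11.3 to 18.5 TPM and 12.3 to 14.2 TPM, fibroblast markers to under 2 TPM and the endothelial marker Kdr to under 1 TPM in either group.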

How the data were processed

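Reads had been aligned with STAR by the authors, against mm10 plus the ERCC92 spike-in sequences, and counted per gene with featureCounts. After upper-quartile scaling in EDASeq they deposited TPM, computed from effective gene length. Libraries were made from bulk RNA with the SMART-Seq v4 kit. Whether counting used strand is not given in the sources used here. Columns of values left unused numbered 0.

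Values were taken to log2(TPM + 1) for genes at 1 TPM or more in at least 3 of the 12 libraries. Groups were taken from the sample titles. All 12 libraries entered 1 limma 3.58.1 fit of the 4 conditions (two-sided, moderated with a trend of variance on mean, in R 4.3.3), with the contrast Pre-enriched minus Pre-FACS and Benjamini-Hochberg adjustment over 12159 genes at a threshold of 0.05. The fit was checked on simulated data. The study's methods name a pseudocount of 1 and R and no test.

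The rule for named genes gave 83: every called gene, the 12 genes of lowest p in each direction, the 5 of largest change in each direction with a mean of 10 TPM or more, and up to 3 of lowest p in each of 27 lists. Some items, an allele of the mice among them, are not reported here. The members and lists were chosen with earlier results of these data known. Positions, biotypes, lengths and GC content come from GENCODE for mm10, where 99.3% of symbols were found, and promoters from RefSeq. Figures were drawn with matplotlib in Python. The single-cell table of the series was not used here. Alternatives were another pseudocount (0.1), no filter or a mean of at least 5 TPM, quantile normalization, median centring, limma without the trend, each gene on its own, only the 6 libraries, the replicate number as a block, thresholds of 0.1 and 0.01 and each library left out. Removing length and GC trends, and leaving out transcripts under 200 bases, were added after seeing the data.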

Additional observations from a re-analysis of the deposited data

How the results depend on the processing

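With 3 libraries a group and unknown depth, only large or very even differences could pass the threshold. Atf4 was called under the 10 other settings of filter, scaling and model, and with each library left out. The number of genes called, 6 as reported, was 2 when each gene was tested on its own, 13 at an adjusted p of 0.1 and 1 at 0.01. It ranged from 1 to 7 with 1 library left out, and was 1 without Pre-FACS 3, Pre-enriched 1 or Pre-enriched 3 and 2 without Pre-FACS 2. With the replicate number as a replicate block it was 37, which included the same 6 and, not called without the block, Gadd45g, Gnl3, Eif2s2, Hsp90aa1, Hbegf, Chac1 and the immediate-early genes Fos, Atf3, Egr2, Nr4a1 and Btg2. The YAP targets Ankrd1 and Cyr61 were also among the 37. Deviations from the group means correlated at 0.0671, 0.0255 and 0.0426 for same-numbered libraries of Pre-enriched and Pre-FACS. For differently numbered libraries the correlations ran from -0.0816 to 0.0399, and Pre-enriched 2 correlated best with Pre-FACS 3 (0.0399). What the numbers share is not stated, so they were not treated as pairs in the reported fit. Glycolysis genes above 0, 4 of 20 as reported, were 2 after quantile normalization and 7 after median centring, and ranged from 3 to 8 with 1 library left out. The ATF4 list ranged from 15 to 27 of 27. Immediate-early, cholesterol and ribosome biogenesis counts stayed within 1.5 times. The 83 named genes were picked by low p or large change in these same libraries, which favors a kept direction. Of 1821 values of these genes under an alternative, 0 changed direction, 39 lost and 30 gained the threshold. The causes were not tested.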
